A study of Mus musculus with 16 samples.

Results

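The genes described here are those of the MCM helicase and of origin licensing, the step that prepares chromosomes for replication. They were chosen by symbol from the log2 CPM table of the authors, and 10 of 10 symbols (*Mcm2*, *Mcm3*, *Mcm4*, *Mcm5*, *Mcm6*, *Mcm7*, *Mcm10*, *Cdc6*, *Cdt1* and *Cdc45*) were found among its 16707 genes. They were measured by RNA-seq in primary astrocytes from the brains of P6 pups, selected with beads against the astrocyte surface antigen ACSA-2 and grown for about 10 days without serum, with HB-EGF at 5 ng/mL. Cultures came from 4 litters of wild-type mice (WT) and 4 litters of mice lacking the innate immune receptor NLRX1 (*Nlrx1*-/-). From each litter, 1 well received vehicle (water) and 1 well 500 ng/mL of lipopolysaccharide (LPS), the endotoxin of Gram-negative bacteria, with 10 ng/mL of the cytokine IFNγ for 24 h. This gave 4 groups of 4 libraries. Each litter had 1 genotype, every group shared the same selection and growth factor, and the deleted part of *Nlrx1* is not given in the sources used here. The age of the pups and the vehicle are those of the sample labels, and the study's text names a younger age and phosphate-buffered saline in other places.

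An origin is licensed before DNA synthesis begins, when the origin recognition complex, CDC6 and CDT1 load a double ring of the MCM proteins, built from the products of *Mcm2* to *Mcm7*, onto DNA. The ring stays inactive until CDC45 and the GINS complex join it, with MCM10 needed to start unwinding, and together they form the helicase that runs ahead of the replication fork. Geminin and the destruction of CDT1 prevent a second loading in the same cycle, and E2F factors are known to switch on most of these genes as cells leave rest. Astrocytes of a newborn brain still divide, and in culture they do so in response to ligands of the EGF receptor. In such bulk samples, fewer cells in cycle and less RNA per cell cannot be told apart.

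By GENCODE M39 on GRCm39, *Cdc6* lies at chr11:98798507-98814766 on the plus strand and *Cdt1* at chr8:123294703-123300293 on the plus strand. The genes of the ring are spread over 5 chromosomes, with *Mcm2* at chr6:88860452-88875762, *Mcm3* at chr1:20870791-20890536, *Mcm4* at chr16:15440211-15455264, *Mcm6* at chr1:128259311-128287516 and *Mcm7* at chr5:138162844-138170684, all on the minus strand. *Mcm5* lies at chr8:75836140-75856231 on the plus strand. *Mcm10* lies at chr2:4994516-5017629 and *Cdc45* at chr16:18599195-18631551, both on the minus strand. Reads from unstranded libraries were assigned to transcripts by Salmon. Exons of *Ap4m1* and *Cops6*, on the other strand, cover 6.20% and 6.13% of the exonic bases of *Mcm7*, and exons of *Ufd1* cover 10.6% of those of *Cdc45*, and to what extent reads from these stretches were assigned to the neighbours was not tested.

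Promoters are shown as a description, and their part in the results was not tested. RefSeq promoter sequences (GRCm38.p6, 250 bases before to 50 after the start of transcription) were given for 9 of the 10 genes, and each was placed on GRCm39 by its single exact match. They were searched on both strands for the E2F letters TTTCCCGC, TTTCGCGC, TTTGCCGC and TTTGGCGC, forms of 1 motif that can overlap each other on opposite strands. Such letters were found for 6 of the 9 genes, namely *Mcm3*, *Mcm5*, *Mcm6*, *Mcm7*, *Cdc6* and *Cdt1*, against 2.605% of 27025 genes with a promoter entry (2.265% of 32851 promoters of the same length). A further promoter entry of *Mcm7* (chr5:138169479-138169778) held none of them. No E2F letters were in the windows of *Mcm2*, *Mcm10* or *Cdc45*. These 3 genes also varied with the group, at a Pearson r of 0.987, 0.953 and 0.966 with the mean z-score of the 10 genes. The letters CCAAT, read by the factor NF-Y, were found for 7 of the 9 genes, against 41.1% of the 27025 genes. Of the CCAAT matches of *Mcm7*, only the one after the start shares 1 base with its E2F letters. The windows below are written along each gene's strand, with E2F letters in capitals. The *Mcm5* window and the first *Mcm6* window overlap no GENCODE gene, the *Cdc6* window lies inside the GENCODE gene but in no exon, and the others overlap an exon of their own gene, with an exon of *Ap4m1* also in the first *Mcm7* window.
Mcm5, 173 to 1 bases before the start, chr8:75835964-75836136, plus strand: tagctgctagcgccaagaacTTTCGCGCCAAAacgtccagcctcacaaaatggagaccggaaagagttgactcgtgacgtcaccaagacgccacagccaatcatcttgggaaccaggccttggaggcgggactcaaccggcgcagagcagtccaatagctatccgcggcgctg
Mcm6, chr1:128287517-128287572, minus strand: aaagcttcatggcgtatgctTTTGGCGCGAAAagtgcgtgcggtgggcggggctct
Mcm6, chr1:128287471-128287500, minus strand: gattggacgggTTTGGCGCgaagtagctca
Mcm7, chr5:138170292-138170321, minus strand: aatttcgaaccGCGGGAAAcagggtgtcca
Mcm7, chr5:138170111-138170140, minus strand: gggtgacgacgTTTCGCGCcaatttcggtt
Cdc6, chr11:98798828-98798857, plus strand: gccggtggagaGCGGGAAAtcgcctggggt
Mcm3, chr1:20890489-20890518, minus strand: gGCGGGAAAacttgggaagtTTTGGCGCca
Cdt1, chr8:123294774-123294803, plus strand: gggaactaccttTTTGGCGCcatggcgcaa

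In *Mcm5* and in the first *Mcm6* window, 2 forms overlap on opposite strands in 1 run of 12 bases. In *Mcm3* both runs of capitals lie after the start of transcription, and so does that of *Cdt1*. These are descriptions of letters, and binding was not measured here.

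Libraries held between 27259420 and 43752903 read pairs assigned to transcripts, and each of the 10 genes had between 156 reads (*Cdc6* in its lowest library) and 6475 reads (*Mcm7* in its highest), so reads limit the precision of *Cdc6* most. *Nlrx1* was at 4.22 ± 0.15 log2 CPM (SD, n = 4) in WT vehicle and at 2.47 ± 0.53 (SD, n = 4) in *Nlrx1*-/- vehicle, and the highest *Nlrx1*-/- library (2.96) lay below the lowest WT library (4.08). The log2 difference between genotypes was -1.70 in vehicle (edgeR adjusted p = 0.0538) and -2.19 after LPS + IFNγ (edgeR adjusted p = 0.00318). These fits treat both wells of a litter as independent, and with only the libraries of 1 treatment the edgeR adjusted p was 0.211 in vehicle and 0.0514 after LPS + IFNγ. All 10 astrocyte markers reached 1 TPM in a library, and their summed level ranged from 4133 to 6837 TPM in WT vehicle, 3394 to 5075 in WT LPS + IFNγ, 3042 to 5091 in *Nlrx1*-/- vehicle and 2654 to 3888 in *Nlrx1*-/- LPS + IFNγ. Of 10 microglia and macrophage markers, 3 reached 1 TPM in a library, among them *Cd68* (1.35 to 3.80 TPM) and *P2ry12* (0.051 to 1.62). The *P2ry12* mean went from 0.215 TPM with vehicle to 0.59 after treatment in WT cultures, and from 0.255 to 1.097 TPM in *Nlrx1*-/- cultures. *C1qa* reached at most 0.87 TPM and *Aif1* 0.501, and *Cx3cr1* and *Itgam* stayed below 0.1 TPM in every library. Of 10 markers of the oligodendrocyte lineage, 9 reached 1 TPM, with sums of 2736 to 3311 TPM in WT vehicle and 2793 to 3374 in *Nlrx1*-/- vehicle, of which *Olig1* gave the most. Their sums after LPS + IFNγ were 2015 to 2562 TPM in WT and 1698 to 2374 TPM in *Nlrx1*-/- astrocytes. Ependymal marker sums in WT cultures ranged from 198.2 to 285.4 TPM with vehicle and from 120.3 to 169.8 TPM after treatment. In *Nlrx1*-/- cultures they ranged from 109.3 to 208.2 TPM with vehicle and from 61.7 to 110.6 TPM after treatment. Of 10 endothelial, pericyte and fibroblast markers, 6 reached 1 TPM, with sums of 13.4 to 16.6 TPM with vehicle and 7.13 to 11.3 TPM after treatment in WT. In *Nlrx1*-/- cultures litter 3 stood apart in this list, at 28.2 TPM with vehicle and 20.4 TPM after treatment, where the other litters lay between 6.38 and 11.0 and between 6.20 and 7.28 TPM. Of 10 neuron markers, 9 reached 1 TPM, with median sums of 363 TPM with vehicle and 345 TPM after treatment in WT, and of 362 and 411 TPM in *Nlrx1*-/- cultures. *Map2* gave most of these sums (255.3 to 350.5 TPM), and other members moved beneath them. The mean of *Tubb3* was 13.3 TPM with vehicle and 74.4 TPM after treatment in WT, and 10.6 and 69.2 TPM in *Nlrx1*-/- cultures, while that of *Gad1* was 3.67 and 0.895 TPM in WT, and 4.86 and 1.12 TPM in *Nlrx1*-/- cultures. The part of these shifts in the results was not tested. Litter 2 of the *Nlrx1*-/- cultures and litter 1 of the WT cultures stood apart from their groups in the genes described here, so the main results are also given without them. *Nlrx1*-/- litter 2 also had the lowest vehicle astrocyte sum (3042 TPM) and both lowest ependymal sums of its genotype. Its oligodendrocyte lineage sum was the highest of its genotype in vehicle (3374 TPM) and the lowest after treatment (1698 TPM). WT litter 1 had the lowest astrocyte and ependymal sums and the highest oligodendrocyte lineage sums of its genotype in both treatments. Their part in the results was not tested.

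Compared per transcript length (TPM), *Mcm7* was the most abundant of the 6 ring subunits in 16 of 16 libraries, at 111 ± 26.5 TPM (SD, n = 4) in WT vehicle and 136 ± 11.5 in *Nlrx1*-/- vehicle. *Mcm6* followed at 53.9 ± 24.9 TPM in WT vehicle and 82.9 ± 20.4 in *Nlrx1*-/- vehicle. *Mcm4* (51.8 ± 20.5 TPM), *Mcm5* (43.1 ± 17.7), *Mcm2* (40.8 ± 15.2) and *Mcm3* (36.5 ± 16.5) came next in WT vehicle, and neighbours in this order differed by less than their SD. The lowest subunit was *Mcm3* in 7 libraries, *Mcm2* in 6, *Mcm5* in 2 and *Mcm4* in 1. The ratio of the highest to the lowest subunit had a median of 2.41 over the 16 libraries and ranged from 1.85 to 3.82. The genes outside the ring were lower, with *Cdt1* at 17.2 ± 7.24 TPM, *Cdc45* at 16.9 ± 7.52, *Mcm10* at 12.5 ± 6.43 and *Cdc6*, the lowest, at 3.76 ± 2.00 in WT vehicle. *Mcm2*, *Mcm4* and *Cdt1* had 1 transcript each in the annotation used for counting. *Mcm5* was the most divided, with 52.1% of its reads on a transcript of 3441 bases and 38.1% on a predicted non-coding transcript of 2759 bases.

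**Figure D1:**
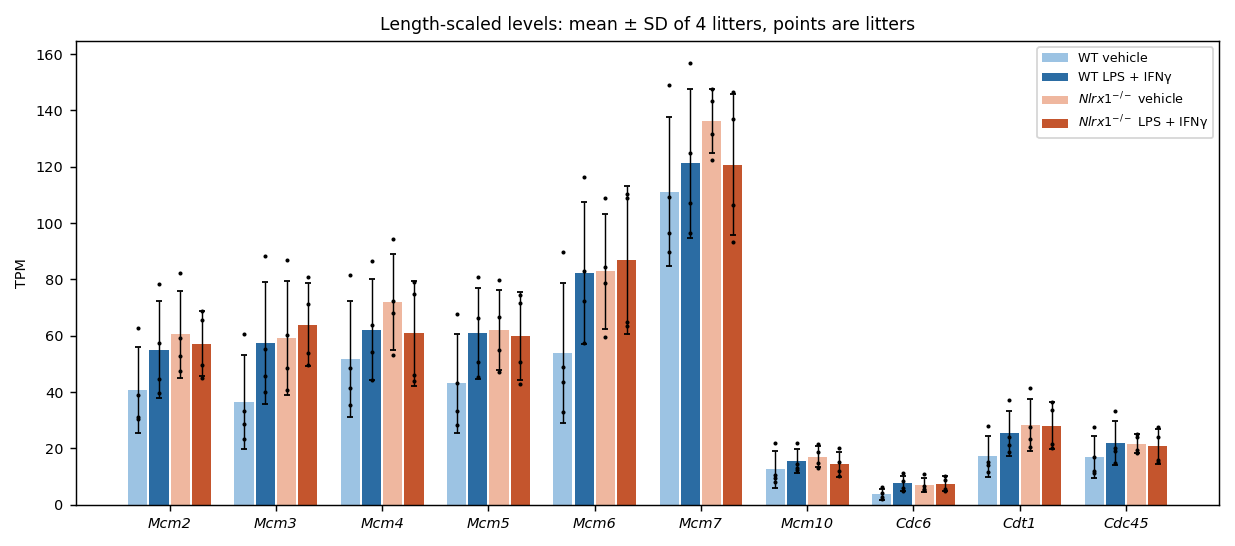
TPM of each gene (vertical axis) in the 4 groups, as bars for the mean with SD over 4 litters and 1 point per litter. *Mcm7* is the highest and *Cdc6* the lowest in each group, and the WT vehicle mean is the lowest of the 4 for every gene.

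The first comparison asks how these genes respond to LPS + IFNγ in WT astrocytes, within litters. All 10 genes rose, by log2 fold changes between 0.34 and 1.31 with a median of 0.70, where the median over all 16066 tested genes was -0.02. By edgeR's quasi-likelihood test, 10 of 10 were called up (adjusted p between 0.00168 and 0.0293), against 23.7% of all tested genes called up, and DESeq2 and limma-voom also called 10, against 23.3% and 23.9%. Each of the 10 was higher after LPS + IFNγ in 4 of 4 litters, which held for 31.2% of the genes of the table. Called means a Benjamini-Hochberg adjusted p below 0.05 over all tested genes.

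*Cdc6* had the largest log2 fold change of the 10. This gene, whose product helps to load the MCM ring at origins, was at 3.80, 2.56, 3.13 and 2.08 log2 CPM in WT vehicle litters 1 to 4 and at 4.78, 3.98, 4.42 and 3.67 after LPS + IFNγ. Its log2 fold change was 1.31 (standard error 0.26, edgeR adjusted p = 0.00194), a 2.47-fold rise. Each litter rose, by 0.98 to 1.58 log2 units, although the lowest stimulated library lay below the highest vehicle library. *Cdt1*, which brings the ring to the origin, was at 4.79, 3.87, 3.94 and 3.56 log2 CPM in vehicle and at 5.40, 4.70, 4.83 and 4.46 after LPS + IFNγ. It rose by 0.80 (standard error 0.20, edgeR adjusted p = 0.00825), and litter 1 was again the highest and litter 4 the lowest in both treatments.

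Among the ring subunits, *Mcm3* and *Mcm6* rose most and *Mcm7* least. *Mcm3* was at 6.40, 5.35, 5.55 and 5.06 log2 CPM in WT vehicle and at 7.13, 6.28, 6.52 and 6.02 after LPS + IFNγ, with a log2 fold change of 0.89 (standard error 0.18, edgeR adjusted p = 0.00210). *Mcm6* went from 6.92, 5.91, 6.05 and 5.51 to 7.48, 6.89, 7.06 and 6.50, with a log2 fold change of 0.87 (standard error 0.17, edgeR adjusted p = 0.00168). The rise was nearly parallel in litters 2, 3 and 4 and smaller in litter 1, which started highest. *Mcm5* responses were 0.44, 0.86, 0.86 and 0.88 log2 units in litters 1 to 4, and those of *Mcm2* were 0.51, 0.77, 0.81 and 0.58. *Mcm4* responses were 0.28, 0.63, 0.63 and 0.52, with a log2 fold change of 0.50 (standard error 0.16, edgeR adjusted p = 0.0293). *Mcm7*, the subunit with the highest TPM, rose by 0.27, 0.40, 0.44 and 0.30, with a log2 fold change of 0.34 (standard error 0.10, edgeR adjusted p = 0.0149).

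Both genes needed to start the loaded helicase also rose. *Cdc45* went from 4.68, 3.52, 3.99 and 3.44 log2 CPM to 5.15, 4.52, 4.43 and 4.06, with a log2 fold change of 0.61 (standard error 0.15, edgeR adjusted p = 0.00625). *Mcm10* went from 5.28, 3.99, 4.25 and 3.85 to 5.34, 4.77, 4.82 and 4.57, with a log2 fold change of 0.59 (standard error 0.15, edgeR adjusted p = 0.00786), and its litter 1 hardly moved (0.07). For all 10 genes, WT litter 1 was the highest and litter 4 the lowest in either treatment. The WT vehicle and stimulated ranges therefore overlapped for each of the 10 genes, where 20.2% of all genes had every stimulated library above every vehicle library. The calls thus rest on the pairing by litter, and without litters as blocks edgeR called 4 of 10, *Mcm3*, *Mcm5*, *Mcm6* and *Cdc6*, against 18.9% of all tested genes. Without WT litter 1, 10 of 10 were called, with a median of 0.80, against 20.6% of all tested genes. Without WT litter 2, 8 were called, against 19% of tested genes (3088 of 16294), and without litter 3 also 8, against 19.4%, with *Mcm4* and *Mcm7* not called in either fit. Without litter 4, 9 were called, against 20.7%, and *Mcm4* was not.

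**Figure D2:**
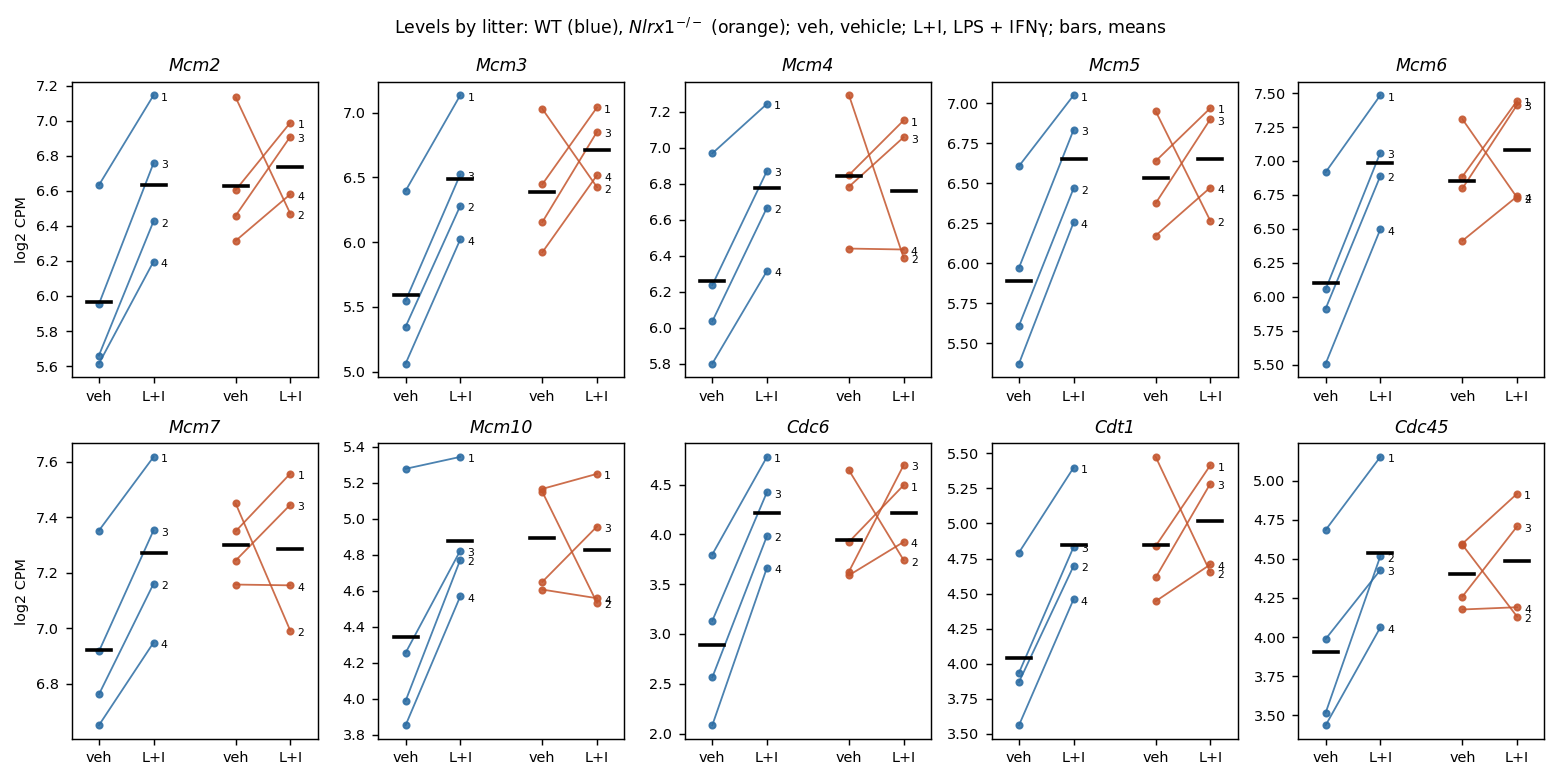
Log2 CPM (vertical axis, scaled for each gene) of the 10 genes in vehicle (veh) and LPS + IFNγ (L+I), with a line for each litter, litter numbers at the right end of the lines and black bars for group means. WT lines (blue) all go up, and the line of *Nlrx1*-/- litter 2 (orange) goes down for each gene.

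In *Nlrx1*-/- astrocytes the same treatment gave fold changes near 0, with 0 of 10 genes called (edgeR adjusted p between 0.168 and 0.841), against 25.3% of tested genes called up in these litters. DESeq2 and limma-voom also called 0, against 25.4% and 26.1% of genes called up, and by edgeR 0 of 10 had an unadjusted p below 0.05, against 55.7% of tested genes in either direction. The log2 fold changes lay between -0.10 and 0.31, with a median of 0.10, and 7 of 10 were above 0. In TPM, which has no TMM adjustment, the median over all genes shifted by -0.15 to -0.24 log2 units per litter with LPS + IFNγ, so values are read against that shift, and 3 of 10 mean responses were above 0. The median of the 10 genes, averaged over the *Nlrx1*-/- litters, lay 0.12 above that of all genes in CPM and 0.10 above it in TPM. In WT it lay 0.74 above it in CPM and 0.745 above it in TPM.

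The small means hid litters that went opposite ways. *Mcm3* was at 6.45, 7.03, 6.15 and 5.92 log2 CPM in *Nlrx1*-/- vehicle litters 1 to 4 and at 7.04, 6.42, 6.85 and 6.52 after LPS + IFNγ. The differences were thus 0.59, 0.70 and 0.60 in litters 1, 3 and 4, and -0.605 in litter 2. *Cdc6* was at 3.93, 4.64, 3.63 and 3.59 in vehicle and at 4.49, 3.74, 4.70 and 3.92 after LPS + IFNγ, a difference of -0.90 in litter 2 and of 1.07 in litter 3. *Cdt1* was at 4.84, 5.47, 4.62 and 4.45 in vehicle and at 5.42, 4.65, 5.28 and 4.71 after stimulation. For these 3 genes, litter 2 had the highest vehicle library and the lowest stimulated library of its genotype.

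The other ring subunits repeated this order. *Mcm2* responses in litters 1 to 4 were 0.39, -0.66, 0.45 and 0.27, and those of *Mcm6* were 0.56, -0.58, 0.62 and 0.33. *Mcm5* responses were 0.33, -0.69, 0.53 and 0.30. *Mcm4* (0.30, -0.90, 0.28 and -0.0053) and *Mcm7* (0.21, -0.46, 0.20 and -0.0028) had litter 4 close to 0. Of the helicase starters, *Cdc45* responses were 0.32, -0.46, 0.45 and 0.01 and *Mcm10* responses 0.08, -0.62, 0.31 and -0.05. Litter 2 was below 0 for 10 of 10 genes and litters 1 and 3 were above 0 for 10 of 10, with litter 4 above 0 for 7. For 10 of 10 genes, litter 2 had the lowest response of the 8 litters and the lowest stimulated level of its genotype, and for 8 of 10 it had the highest vehicle level of all 8 vehicle libraries.

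The count of called genes in *Nlrx1*-/- astrocytes rested on that litter. Without *Nlrx1*-/- litter 2, edgeR called 6 of 10 genes up, against 22.8% of 16303 tested genes, and the median log2 fold change was 0.36. The 6 were *Mcm3* (0.61, edgeR adjusted p = 7.3e-05), *Mcm6* (0.49), *Cdt1* (0.49), *Cdc6* (0.65), *Mcm5* (0.37) and *Mcm2* (0.35). Even so, these values lay below the WT fold changes of the same genes. Without litter 3 the median was -0.03 and 2 of 10 genes were above 0.

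**Figure D3:**
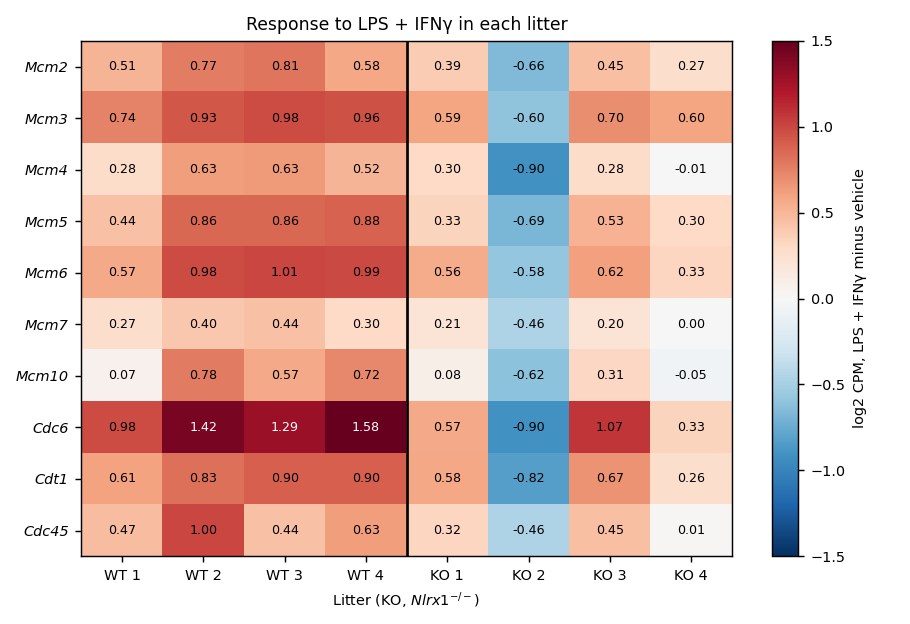
Difference in log2 CPM between LPS + IFNγ and vehicle in each litter (columns) for each gene (rows), red above and blue below 0. WT litters are all above 0, *Nlrx1*-/- litter 2 is below 0 in each row, and the other *Nlrx1*-/- litters lie above litter 2, in part within the WT range.

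Whether the response differed between genotypes was tested by the interaction of genotype and treatment. It was below 0 for 10 of 10 genes, with log2 differences between -1.04 (*Cdc6*) and -0.37 (*Mcm7*) and a median of -0.61, where the median over all tested genes was -0.02. After adjustment edgeR called 0 of 10 (adjusted p between 0.223 and 0.321), and 0% of all tested genes were called, the lowest adjusted p of any gene being 0.2175. DESeq2 called 0 of 10, with 111 genes higher and 185 lower called over the whole table (2.34% of the 12639 genes it gave an adjusted p), and limma-voom called 0 of 10 and 0% of all tested genes. At an unadjusted p below 0.05, the response of 10 of 10 genes was lower in *Nlrx1*-/- astrocytes, against 9.47% of tested genes, by edgeR, 10 of 10, against 8.66%, by DESeq2, and 9 of 10, against 9.70%, by limma-voom. With a WT litter left out, edgeR counted 9 without litter 1 (9.69% of all tested genes, median of the 10 genes -0.69), 5 without litter 2 (7.03%), 5 without litter 3 (6.51%) and 7 without litter 4 (6.80%). Without litters as blocks it counted 0 (4.17%). The 10 genes varied together over the 16 libraries, at a Pearson r of 0.953 to 0.992 with their mean z-score. Counts over them, here and in the other comparisons, are therefore not independent results. *Mcm10* had the lowest unadjusted p (0.00704, edgeR), with a log2 difference of -0.69 (standard error 0.21, adjusted p = 0.223).

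*Cdc6* had a difference of -1.04 (standard error 0.36, edgeR adjusted p = 0.233), and *Cdt1* one of -0.63 (standard error 0.28, edgeR adjusted p = 0.321). Among the ring subunits the differences were closer together, from -0.65 for *Mcm6* (standard error 0.23) and -0.64 for *Mcm5* to -0.56 for *Mcm2* and -0.37 for *Mcm7*. For 3 genes, *Mcm2*, *Mcm3* and *Mcm7*, each *Nlrx1*-/- response lay below each WT response, which held for 5.25% of the genes of the table. Litter 4 lay below all 4 WT litters for 10 of 10 genes, litter 1 for 8 and litter 3 for 4. Without litter 2 the differences stayed below 0 for 10 of 10 genes but the median moved to -0.34, with 9 of 10 at an unadjusted p below 0.05, against 7.67% of tested genes (edgeR adjusted p between 0.356 and 0.433). No gene of the 10 was called with any litter left out. Over all tested genes, edgeR then called 1.95% without *Nlrx1*-/- litter 3 (adjusted p of the 10 genes between 0.0613 and 0.144), 0.00613% (1 gene) without WT litter 1 and 0 without each of the other litters. Across 17 alternatives the lowest adjusted p was 0.0544, for *Mcm10* by DESeq2.

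**Figure D4:**
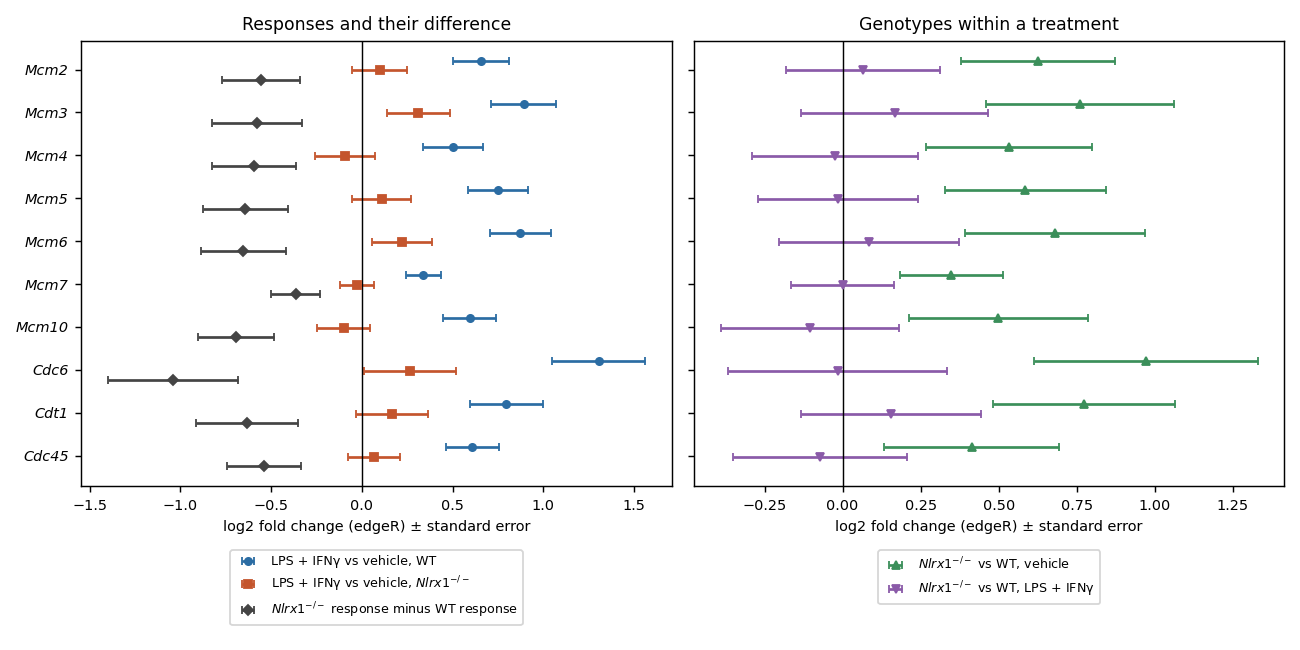
Log2 fold changes from edgeR with standard errors (horizontal axis) for each gene. On the left, WT responses (0.34 to 1.31) lie above *Nlrx1*-/- responses (-0.10 to 0.31), and their differences (grey) lie below 0. On the right, *Nlrx1*-/- against WT lies above 0 in vehicle and around 0 after LPS + IFNγ.

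The genotypes were next compared in vehicle. All 10 genes had higher means in *Nlrx1*-/- than in WT astrocytes, with log2 differences between 0.35 (*Mcm7*) and 0.97 (*Cdc6*) and a median of 0.61, where the median over all tested genes was 0.0008. By edgeR 0 of 10 were called (adjusted p between 0.172 and 0.422), as for 0% of all tested genes, and DESeq2 and limma-voom called 0 of 10. These fits treat both wells of a litter as independent. In the fit on only the vehicle libraries, edgeR also called 0 of 10 (adjusted p between 0.223 and 0.390) and 0 of 15365 tested genes. Over all genes, DESeq2 called 5.07% of the 14506 it gave an adjusted p and limma-voom 0.00622% (1 gene). At an unadjusted p below 0.05, 6 of 10 were higher by edgeR, against 11.0% of tested genes, 8 by DESeq2, against 11.6%, and 9 by limma-voom, against 10.7%.

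*Cdc6* was at 2.89 ± 0.74 log2 CPM (SD, n = 4) in WT vehicle and 3.95 ± 0.49 in *Nlrx1*-/- vehicle, and *Cdt1* at 4.04 ± 0.53 and 4.84 ± 0.45. *Mcm3* was at 5.59 ± 0.57 and 6.39 ± 0.48, and *Mcm6* at 6.10 ± 0.59 and 6.85 ± 0.37. The smallest gap was that of *Mcm7*, at 6.92 ± 0.31 and 7.30 ± 0.13. Ranges of the genotypes overlapped for 10 of 10 genes, where 6.02% of all genes had each *Nlrx1*-/- vehicle library above each WT one. The overlap came from WT litter 1. With it set aside, each *Nlrx1*-/- vehicle library lay above WT litters 2, 3 and 4 for 10 of 10 genes, against 13.1% of all genes. WT litter 1 was set aside because it was the highest WT vehicle library for 10 of 10 of these same genes. The share over all genes leaves out the same litter without that choice, so it is not a like reference and the count is no test. In the fit without WT litter 1, the median difference of the 10 genes was 0.91, and edgeR called 2 of 10 up, *Mcm2* and *Mcm3*, at a log2 difference of 0.91 and 1.11 (adjusted p = 0.0495 for both), against 0.717% of 16323 tested genes. That fit leaves out a litter chosen from these values and treats both wells of a litter as independent, so these 2 calls are not firm. Without *Nlrx1*-/- litter 2, which had the highest vehicle level for 8 of 10 genes, the median difference was 0.44 and 0 of 10 were higher at an unadjusted p below 0.05, against 5.77% of tested genes. That count was 0 without WT litter 2 (7.78%), 1 without WT litter 3 (7.93%), 1 without WT litter 4 (8.02%) and 4 without *Nlrx1*-/- litter 1 (10.2%), and it was 6 without *Nlrx1*-/- litter 3 (12.9%), 8 without *Nlrx1*-/- litter 4 (10.6%) and 10 without WT litter 1 (13.1%). Without *Nlrx1*-/- litter 3, 0 of 10 were called (edgeR adjusted p between 0.0882 and 0.371), where 8.04% of tested genes were. The vehicle sums of astrocyte markers given above were lower in *Nlrx1*-/- astrocytes in the median (3799 against 5311 TPM), and those of ependymal markers were too (153 against 243 TPM). The gap in the astrocyte sum lay mostly in *Gfap* (mean 505 against 1285 TPM), *Gja1* (275 against 534) and *Aqp4* (284 against 508), while *Slc1a3* was at 1177 against 1181 TPM and *Aldh1l1* at 543 against 505 TPM. The part of these differences in the result was not tested.

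After LPS + IFNγ the genotypes were close. *Mcm3* had the highest log2 difference between *Nlrx1*-/- and WT (0.17, standard error 0.30) and *Mcm10* the lowest (-0.11, standard error 0.28), and 5 of 10 genes were above 0. By edgeR 0 of 10 were called (adjusted p between 0.755 and 0.998) where 5.03% of all tested genes were called, a share that was 0% in the fit on the 8 libraries of that treatment, and 0 of 10 had an unadjusted p below 0.05 where 28.4% of tested genes did. DESeq2 and limma-voom also called 0 of 10, where DESeq2 called 16.5% of the 14817 genes it gave an adjusted p and limma-voom 2.40% of all tested genes. *Cdc6* was at 4.21 ± 0.49 log2 CPM (SD, n = 4) in WT and 4.21 ± 0.45 in *Nlrx1*-/- astrocytes, *Mcm5* at 6.65 ± 0.36 and 6.65 ± 0.34, and *Mcm7* at 7.27 ± 0.28 and 7.29 ± 0.26. An interval of 2 standard errors reaches 0.33 (*Mcm7*) to 0.70 (*Cdc6*) log2 units on either side of these differences, so equal levels are not shown. Without WT litter 1, or without *Nlrx1*-/- litter 2, 10 of 10 genes were above 0 in *Nlrx1*-/- astrocytes, with medians of 0.19 and 0.11. Without WT litter 4 or without *Nlrx1*-/- litter 1, 2 of 10 were above 0, with medians of -0.10 and -0.096, so the direction of this comparison changed with single litters.

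Across the 4 groups, WT vehicle therefore had the lowest mean of each gene, and the other 3 groups lay closer together. The vehicle comparison, both responses and their interaction share libraries, so they are not independent of each other.

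Other genes of the pathway were counted from lists without the 10 genes. *Orc4* and *Cdkn1a* are named below after their values were seen. Over all tested genes, edgeR called 23.7% up and 20.2% down in WT, and 25.3% up and 24.2% down in *Nlrx1*-/- astrocytes, and the counts below are read against these shares. Without *Nlrx1*-/- litter 2 the *Nlrx1*-/- shares were 22.8% up and 20.7% down. Of 11 genes that load or guard the pre-replicative complex, 0 were called up and 2 down in WT, and 1 up and 4 down in *Nlrx1*-/- astrocytes, by edgeR, the latter 2 up and 2 down without litter 2. The origin recognition subunit *Orc1* had a WT log2 fold change of 0.58 (edgeR adjusted p = 0.102) and a difference between genotypes of -0.91, while *Orc6* had 0.27 and -0.23. Without litter 2 these differences were -0.64 and -0.11. *Orc4*, of the same complex, rose in *Nlrx1*-/- astrocytes (0.37, edgeR adjusted p = 9.8e-04), with a WT value of 0.04. *Gmnn*, which encodes geminin, the inhibitor of CDT1, fell in *Nlrx1*-/- astrocytes (-0.47, edgeR adjusted p = 0.0327) and had a WT value of 0.21 that was not called. Without litter 2 it was at -0.31 and was not called (edgeR adjusted p = 0.144). The median of this list was 0.05 in WT and 0.04 in *Nlrx1*-/- astrocytes, or 0.09 in the latter without litter 2.

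Of 17 genes of helicase activation and origin firing, 4 were called up and 0 down in WT, with a median of 0.21, near the share called over all genes for the count up, and 1 up and 5 down in *Nlrx1*-/- astrocytes, with a median of -0.22. Without litter 2 the *Nlrx1*-/- counts were 2 up and 1 down, with a median of -0.04. The GINS subunit *Gins2* rose in WT (0.60, edgeR adjusted p = 0.0122) and had -0.18 in *Nlrx1*-/- astrocytes, and *Gins1* had 0.33 and -0.43, neither of them called. Without litter 2 the *Nlrx1*-/- values were 0.036 for *Gins2* and -0.25 for *Gins1*, and neither gene was called. The kinase gene *Cdc7*, which triggers the loaded ring, had -0.14 in WT and fell in *Nlrx1*-/- astrocytes (-0.47, edgeR adjusted p = 0.0257), a call that was lost without litter 2 (-0.25, edgeR adjusted p = 0.0889). Its activator *Dbf4* had 0.11 and -0.04. The cyclin E genes rose in WT, *Ccne1* by 1.24 and *Ccne2* by 0.78 (edgeR adjusted p = 2.1e-04 and 0.0440). In *Nlrx1*-/- astrocytes *Ccne1* had 0.43 (edgeR adjusted p = 0.0535) and was called without litter 2 (0.68, edgeR adjusted p = 0.00142), and *Ccne2* had -0.31, or 0.08 without that litter, neither called. Cyclin E, with its kinase, drives entry into S phase.

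Paralogues and a binding partner of the ring were not called. *Mcm8* and *Mcm9*, which act in recombination, had WT log2 fold changes of 0.17 and -0.02, and *Mcmbp*, which binds MCM subunits, had 0.15, none of them called by edgeR. Of the 4 genes in that list, 0 were called in either genotype (1, *Mcmbp*, up in *Nlrx1*-/- astrocytes without litter 2), and their medians were 0.06 in WT and -0.25 in *Nlrx1*-/- astrocytes (-0.16 without litter 2). *Mcmbp* also belongs to the list of the pre-replicative complex above, where the same call is counted. Among 10 genes of licensing turnover and CDK inhibition, 3 were called up and 1 down in WT, and 2 up and 4 down in *Nlrx1*-/- astrocytes, with or without litter 2. *Cdkn1a*, which encodes the cell cycle inhibitor p21, rose in both (1.60 in WT and 1.97 in *Nlrx1*-/-, edgeR adjusted p = 4.1e-07 and 7.1e-08). *Dtl*, part of the ligase that destroys CDT1 during S phase, rose in WT (0.51, edgeR adjusted p = 0.0206) and had -0.04 in *Nlrx1*-/- astrocytes, or 0.20 without litter 2 (edgeR adjusted p = 0.0938).

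Genes that work at the fork were mostly called up in WT. Of 25 fork genes, 21 were called up and 0 down in WT (median 0.50), and 2 up and 1 down in *Nlrx1*-/- astrocytes (median -0.07), or 4 up and 0 down without litter 2 (median 0.12). The sliding clamp gene *Pcna* rose by 0.50 in WT (edgeR adjusted p = 0.00978) and had -0.17 in *Nlrx1*-/- astrocytes, or 0.027 without litter 2. The flap nuclease gene *Fen1* rose by 0.71 in WT (edgeR adjusted p = 0.00272) and had -0.09, or 0.10 without litter 2, so the sign of both *Nlrx1*-/- values rested on that litter. *Rfc1*, of the clamp loader, rose in both genotypes (0.58 and 0.52). Of 7 genes of nucleotide supply, 4 were called up in WT (median 0.58) and 1 down in *Nlrx1*-/- astrocytes (median -0.26, or -0.02 without litter 2), and *Tk1*, encoding thymidine kinase, had the widest interaction of the lists at -1.19 (edgeR adjusted p = 0.2175). Of 13 E2F and pocket protein genes, 6 were called up and 2 down in WT, and 2 up and 4 down in *Nlrx1*-/- astrocytes (4 up and 3 down without litter 2). *E2f1* was at 1.00 (edgeR adjusted p = 0.00191) in WT and at 0.10 in *Nlrx1*-/- astrocytes, and at 0.39 there without litter 2 (edgeR adjusted p = 0.0295). Without litters as blocks, the WT counts called up dropped to 7 of 25 fork genes, 1 of 7 nucleotide genes, 2 of 13 E2F genes and 1 of 17 firing genes, where 18.9% of all tested genes were called up.

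Mitosis markers were called down or not at all. Of 20, 0 were called up and 9 down in WT (median -0.25), and 18 were called down in *Nlrx1*-/- astrocytes (median -0.58), against 20.2% and 24.2% of all tested genes. Without litter 2, 18 were again called down (median -0.55). *Mki67*, a marker of cycling cells, had a WT log2 fold change of -0.35 (edgeR adjusted p = 0.0514) and fell by 0.81 in *Nlrx1*-/- astrocytes (edgeR adjusted p = 5.0e-04). *Cdk1* had 0.08 in WT and fell by 0.47 in *Nlrx1*-/- astrocytes (edgeR adjusted p = 0.00272). Litter by litter (1 to 4), the 10 licensing genes had a median response of 0.49, 0.84, 0.83 and 0.80 in WT. In *Nlrx1*-/- cultures it was 0.36, -0.64, 0.49 and 0.26. For the mitosis markers it was -0.57, -0.13, -0.28 and 0.05 in WT, and -0.41, -0.77, -0.47 and -0.71 in *Nlrx1*-/- cultures. In 3 of 4 litters of each genotype, licensing genes thus had a median above 0 and mitosis markers one below 0. The exceptions were WT litter 4, where both were above 0, and *Nlrx1*-/- litter 2, where both were below 0.

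**Figure D5:**
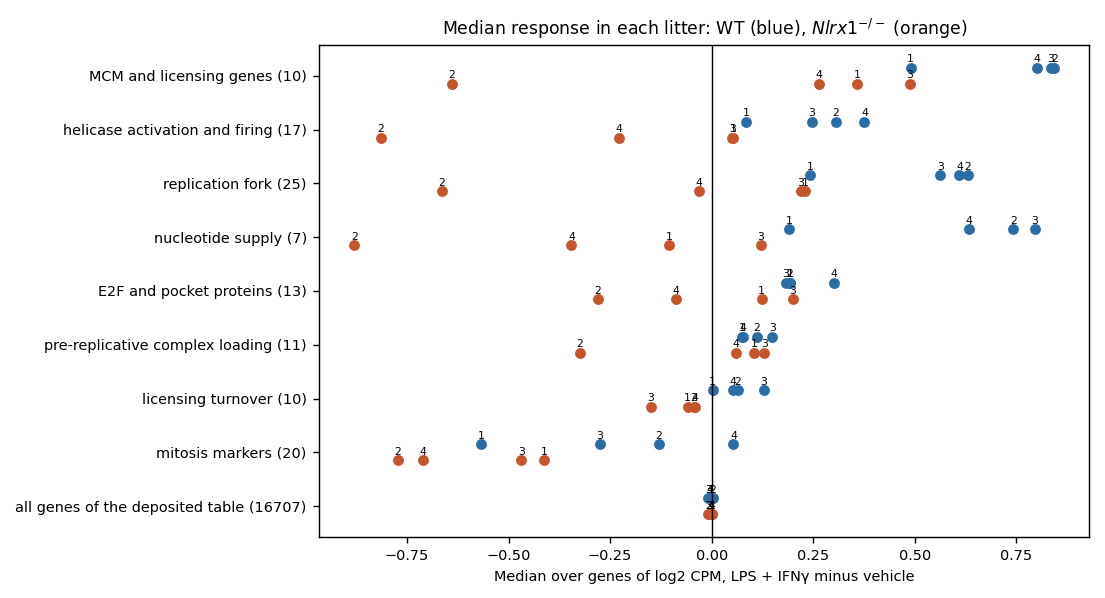
Median over the genes of each list (number in brackets) of the difference in log2 CPM between LPS + IFNγ and vehicle (horizontal axis), with 1 point per litter and litter numbers above. *Nlrx1*-/- litter 2 is the lowest point in each pathway list drawn except licensing turnover, and mitosis markers lie below 0 except in WT litter 4.

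The 10 genes varied together over the 16 libraries. The Pearson r of each with the mean of their z-scores, to which it contributes, was between 0.953 (*Mcm10*) and 0.992 (*Mcm5*). Among 12600 genes with a mean of at least 1 log2 CPM, the 8 outside the group with the highest r were *Dnmt1*, *Chaf1b*, *Uhrf1*, *Slbp*, *Exo1*, *Fam111a*, *Nup85* and *Hat1*, with r from 0.982 down to 0.974. *Dnmt1* and *Uhrf1* copy DNA methylation after replication, *Chaf1b* and *Hat1* act in histone assembly, *Slbp* binds histone mRNA and *Exo1* is a nuclease of DNA repair. Their mean WT responses lay between 0.43 (*Nup85*) and 0.98 (*Chaf1b*), and their *Nlrx1*-/- means between -0.03 (*Exo1*) and 0.24 (*Chaf1b*). In litter 2 the response of each of the 8 was below 0, from -0.21 (*Slbp*) to -0.77 (*Exo1*), and without it the *Nlrx1*-/- means lay between 0.21 (*Exo1*) and 0.54 (*Chaf1b*). These are descriptions over libraries that share litters, treatment and normalization, with n = 16.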

How the data were processed

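Reads were quantified by the authors with Salmon 1.7.0 against the RefSeq transcriptome of GRCm39, without strand. They deposited expected counts, TPM and effective lengths per transcript for each library. The authors summed these to genes with tximport, filtered low genes, applied TMM factors and deposited TMM-adjusted CPM and log2 CPM for 16707 genes, the values printed here as levels. The authors' TPM values, which carry no TMM factor, were summed over the transcripts of a gene. Here, 106440 of 129698 transcripts were paired with a symbol and 23258 were left out. Summed counts, rounded, with transcript length offsets were tested with edgeR 4.0.16 (quasi-likelihood, TMM, count minimum 10, R 4.3.3), with Benjamini-Hochberg adjustment over 16066 genes and a threshold of 0.05. Responses and the interaction had litters as blocks, since each litter gave both wells, and deviations from group means correlated at 0.26 to 0.618 within a litter. Genotypes were compared in a model of the 4 groups, which treats both wells of a litter as independent. Alternatives used DESeq2 1.42.0, limma 3.58.1, other size factors, filters, offsets and blocks, and left out each litter. Scripts were tested on simulated data. Beside the 10 genes, the 2 genes with the largest and the 2 with the smallest absolute interaction in each list, preset partners and markers (*Mki67* among them), *Nlrx1* and the 8 most correlated genes could be named. The 10 genes and all lists were chosen with earlier results of these data known. Litters are the replicates, and intervals between them cover litter and culture differences together. Promoters came from RefSeq tables and positions from GENCODE M39. The level of 1 microglia and macrophage marker, and the sum that holds it, are not reported here.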

Additional observations from a re-analysis of the deposited data

Results flagged for a closer look

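Of 60 groups of 4 values checked (levels in 4 groups and responses in both genotypes, for each gene), 4 held a value far from the other 3, and chance alone gives about 1 in 20. The *Mcm2* response in *Nlrx1*-/- litter 2 was -0.66 log2 units, where the other litters lay between 0.27 and 0.45. The *Mcm3* response in the same litter was -0.605, where the others lay between 0.59 and 0.70. The *Mcm5* response in WT litter 1 was 0.44, where the others lay between 0.86 and 0.88, and that of *Mcm6* in this litter was 0.57, where the others lay between 0.98 and 1.01. The cause was not tested.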

How the results depend on the processing

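Without the replicate block, that is without pairing by litter, the count called up in WT went from 10 to 4. Leaving out a litter gave 8 to 10 called in WT, 0 to 6 in *Nlrx1*-/- astrocytes (6 without litter 2) and 0 to 2 for *Nlrx1*-/- against WT in vehicle (2 without WT litter 1). With the replicate number added as a replicate block to the genotype comparisons, where it joins WT and *Nlrx1*-/- litters of the same number, 0 of 10 were called in vehicle, as against 1 of all 16066 tested genes, and 0 of 10 after LPS + IFNγ, against 13.7%. In vehicle, 10 of 10 were higher at an unadjusted p below 0.05, against 13.1% of tested genes (edgeR adjusted p between 0.0635 and 0.0966). The labels do not say whether litters of the same number share a preparation day. The study's text states that pups of both genotypes shared a day of birth, and does not tie this to replicate numbers. Deviations from group means of same-numbered WT and *Nlrx1*-/- libraries correlated at -0.099 to 0.356 across genes in vehicle and at -0.243 to 0.264 after LPS + IFNγ, and 1 of 4 and 2 of 4 WT libraries correlated best with their own number, so the numbers were not taken as pairs. With a litter left out, the *Nlrx1*-/- response ranged from -0.0253 to 0.3534 for *Mcm2*, -0.2215 to 0.1778 for *Mcm4*, -0.0378 to 0.372 for *Mcm5*, -0.1072 to 0.1214 for *Mcm7*, -0.2042 to 0.093 for *Mcm10*, -0.0158 to 0.6464 for *Cdc6*, -0.0127 to 0.4907 for *Cdt1* and -0.0615 to 0.246 for *Cdc45*, and that of *Nlrx1*-/- against WT after LPS + IFNγ from -0.2941 to 0.0834 for *Mcm10*. The mean over the *Nlrx1*-/- litters of the median response turned from above 0 to -0.0712 with TPM in place of CPM, an alternative chosen after seeing the data, where the all-gene value was -0.1731, and 3 of 4 litters were above 0 in TPM, with litter 2 at -0.8776. The interaction stayed below 0 and uncalled for 10 of 10 genes under 17 alternatives. The causes were not tested. Depth limits *Cdc6* most, with 156 reads in its lowest library.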
